A study of Mus musculus with 2 samples.

Results

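The genes described here are 41 genes of DNA damage signalling and repair, measured in mouse leukemia stem cells. They were found in both gene tables by matching each symbol to the GENCODE mouse annotation through the gene identifier without its version. All 41 were matched, among 43346 rows with an Ensembl identifier and 21474 protein-coding genes. By role they were 4 checkpoint genes, 3 genes of the MRN complex, 10 of homologous recombination, 6 of the Fanconi anaemia pathway, 5 of end joining, 3 of mismatch repair, 6 of base excision and single-strand break repair and 4 of nucleotide excision repair.

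The study sequenced polyA mRNA from these cells with paired ends, in 2 libraries that the labels number as biological replicates 1 and 2. Per the labels the cells carried Friend virus, a mouse retrovirus known for inducing erythroleukemia. They were positive for CD34, CD133, Kit and Sca1, and their hosts were adults of 10 to 12 weeks, male and female pooled. The host strains carry the Fv2 sensitive allele, the strain itself is not named and the health state is given as unknown. There was 1 group and no uninfected or untreated control, so levels are described and no condition is compared. The libraries have different biosamples under the same donor record, so part of their spread could be technical.

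DNA damage is recognised and removed by several pathways that divide the work by the kind of lesion. Breaks of both strands are bound by the MRN complex or by Ku, and are repaired from a sister chromatid by homologous recombination or sealed directly by end joining. The kinases encoded by Atm and Atr report breaks and stalled replication forks to the cell cycle, and the Fanconi anaemia pathway clears links between the strands. Damaged or wrong bases are removed by base excision, nucleotide excision or mismatch repair. Blood stem cells depend on these routes, and inherited loss of Fanconi anaemia genes leads to bone marrow failure.

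Replicate 1 held 23575315 expected counts and replicate 2 held 22541765, an expected count being the authors' estimate of the fragments from a gene. Levels are given in TPM, the deposited share of a gene among all transcripts after correction for length. Of the sort markers, Cd34 had 1.80 TPM in replicate 1 and 0.27 in replicate 2, Kit had 1.81 and 1.06, and Ly6a, which encodes Sca1, had 1.45 and 2.15. Prom1, which encodes CD133, had 0.06 TPM in replicate 1 and was at 0 in replicate 2. Markers of mature cells were also present. All 6 erythroid markers reached 1 TPM in both libraries, as did 5 of 6 macrophage, 4 of 5 B cell, 3 of 5 T cell, 3 of 5 megakaryocyte, 6 of 6 neutrophil and 1 of 4 endothelial markers. Cd79a, the highest B cell marker, had 436 and 99.4 TPM. C1qc, the highest macrophage marker, had 368 and 639, and Gp5, the highest megakaryocyte marker, 283 and 293. The lowest of these lists were Ms4a1 at 3.55 and 0.52 TPM, Adgre1 at 3.67 and 0.78, and Pf4 at 0.78 and 0. In a bulk sample, fewer cells of a type and less RNA per cell cannot be told apart. Which cells the repair transcripts came from was not tested.

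Transcripts of most of the repair genes were present in these libraries, and the levels of the 41 genes differed by role. At least 1 TPM was reached in both libraries by 26 of the 41 genes, or 63.4%, against 41.6% of all protein-coding genes. In replicate 1 alone 38 genes reached that level, and in replicate 2 alone 26. The median gene had 6.91 TPM in replicate 1 and 2.52 TPM in replicate 2. The median of the mean log2(TPM + 1) was 2.49 for these genes and 0.60 for all protein-coding genes. Together the 41 genes took 666 TPM in replicate 1 and 648 TPM in replicate 2.

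The roles differed in level. The median of the mean TPM was 54.9 in base excision and single-strand break repair, 23.0 in nucleotide excision repair, 13.98 in mismatch repair and 8.12 in the MRN complex. It was 3.76 in homologous recombination, 3.07 in the Fanconi anaemia pathway, 1.65 among the checkpoint genes and 0.885 in end joining. All genes of base excision, nucleotide excision and the MRN complex reached 1 TPM in both libraries, 6 of 6, 4 of 4 and 3 of 3. None of the 4 checkpoint genes did, and 1 of 5 end-joining genes did. By the authors' posterior mean TPM, another deposited estimate, Atm, Atr and Chek1 also did. The order of roles above is that of the listed genes. In the other genes of these pathways, described below, the median of the mean TPM was 14.8 for Fanconi anaemia and 13.7 for checkpoint. It was 9.94 for base excision, 7.03 for homologous recombination and 6.6 for nucleotide excision. End joining had 5.08 and mismatch repair 1.1.

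**Figure D1:**
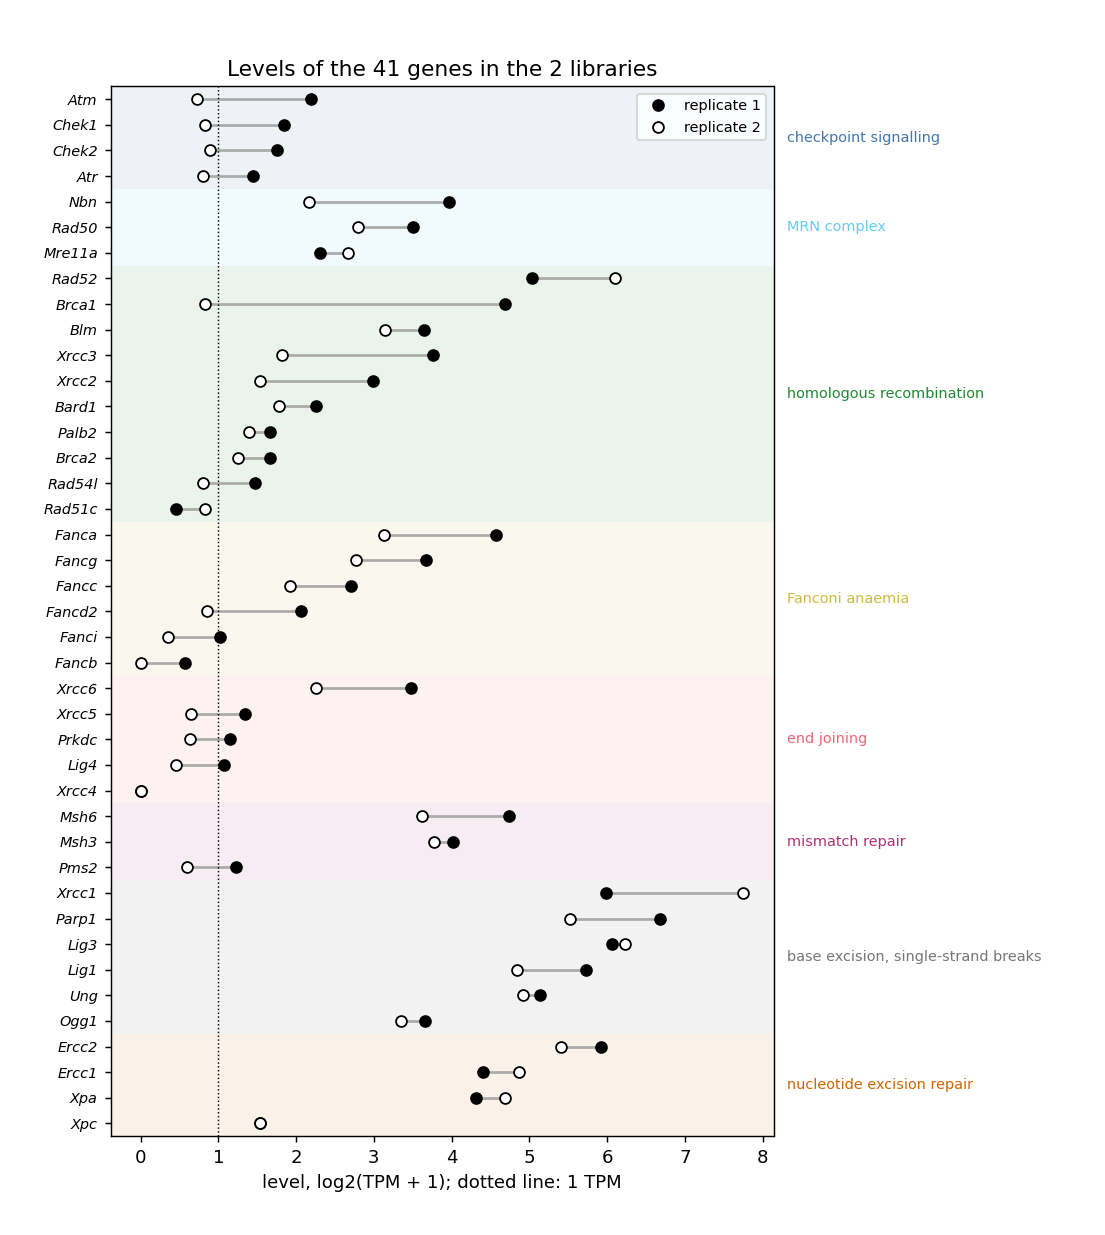
Level of each of the 41 genes as log2(TPM + 1), grouped by role and ordered by mean TPM, with filled points for replicate 1, open points for replicate 2 and a dotted line at 1 TPM. Base excision and nucleotide excision genes lie to the right, and all 4 checkpoint genes have replicate 2 left of the line. Where 1 point is seen, as for Xpc and Xrcc4, the libraries coincide.

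Base excision and single-strand break repair held the most abundant of the 41 genes. Xrcc1, the scaffold that gathers the enzymes of single-strand break repair, had 62.4 TPM in replicate 1 and 215 TPM in replicate 2, the highest mean of the 41 genes. Parp1, which senses nicks and makes poly(ADP-ribose), had 102 and 45.0 TPM. Lig3, the ligase that works with Xrcc1, had 65.7 and 74.1 TPM. By TPM these genes lay on different sides of each other in the libraries. Xrcc1 was the higher in replicate 2 and Parp1 the higher in replicate 1, while the total of Lig3 was close in both. The scaled counts of Parp1 and the split of Lig3 among its transcripts are described below. Lig1, the ligase of replication and long-patch repair, had 52.2 TPM in replicate 1 and 27.6 in replicate 2. Ung, which removes uracil, had 34.2 and 29.1 TPM. Ogg1, which removes oxidised guanine, had 11.7 and 9.19 TPM and was the least abundant of the role.

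Nucleotide excision repair removes bulky lesions such as those made by ultraviolet light. Ercc2, a helicase of the repair and transcription factor TFIIH, had 59.8 TPM in replicate 1 and 41.5 in replicate 2. Ercc1, a subunit of the nuclease that cuts beside the lesion, had 20.2 and 28.1 TPM. Xpa, which holds the opened DNA, had 18.9 and 24.7 TPM. Xpc, the sensor of lesions across the genome, stood well under the other 3, at 1.91 TPM in replicate 1 and 1.89 in replicate 2. Its expected counts were 132 and 131.

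Mismatch repair was carried by its MutS members in these tables. Msh6, which pairs with the common MutS subunit to read single mismatches, had 25.7 TPM in replicate 1 and 11.3 in replicate 2. Msh3, its alternative for longer loops, had 15.2 and 12.7 TPM. Pms2, a subunit of the nuclease that nicks the new strand, had 1.34 and 0.51 TPM. Its counts were 142 and 51, so Pms2 was low in both libraries. Transcripts annotated as protein coding held only 0.37 and 1.03 of these counts. By the authors' posterior mean TPM they held 22.9% and 27.2% of the gene.

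The MRN complex tethers broken ends and recruits the kinase encoded by Atm. Rad50, its coiled-coil subunit, had 10.3 TPM in replicate 1 and 5.95 in replicate 2. Nbn, the subunit that binds the kinase, had 14.6 and 3.47 TPM. Mre11a, the nuclease subunit, had 3.96 and 5.33 TPM. Replicate 1 was the higher for Rad50 and Nbn and the lower for Mre11a, so the order of the subunits was not the same in the libraries.

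Homologous recombination held both an abundant gene, Rad52, and a scarce one, Rad51c. Rad52, which anneals single strands, had 31.6 TPM in replicate 1 and 67.6 in replicate 2. Brca1, the tumour suppressor that promotes the resection of ends, had 24.7 and 0.78 TPM. Blm, a helicase that dissolves crossed strands, had 11.5 and 7.82 TPM. Xrcc3, which helps strand exchange, had 12.6 and 2.52 TPM, and was thus nearer to Blm in replicate 1 than in replicate 2. Xrcc2, which acts in the same step, had 6.91 and 1.91 TPM. Rad51c, whose product binds that of Xrcc3, had 0.37 and 0.77 TPM from 14 counts in each library, the only recombination gene under 1 TPM in both.

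The other 4 recombination genes were low. Bard1, the partner of Brca1 in its ubiquitin ligase, had 3.79 TPM in replicate 1 and 2.44 in replicate 2. Palb2, the bridge between Brca1 and Brca2, had 2.17 and 1.63 TPM. Brca2, which prepares the resected strand for exchange, had 2.16 and 1.39 TPM. By the gene total, all of these were above 1 TPM in both libraries. The coding transcripts of Palb2 had 0 TPM in replicate 1 and 1.63 in replicate 2. Rad54l, a motor protein of strand exchange, had 1.77 and 0.74 TPM.

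In the Fanconi anaemia pathway a core complex attaches ubiquitin to a pair of proteins at the link. Of the core genes, Fanca had 22.8 TPM in replicate 1 and 7.76 in replicate 2. Fancg had 11.7 and 5.80 TPM. Fancc had 5.53 and 2.77 TPM, and these 3 were the pathway's genes at 1 TPM in both libraries. Fancb, a core gene on the X chromosome, had 25 counts and 0.48 TPM in replicate 1 and was at 0 counts in replicate 2. The ubiquitinated pair was low: Fancd2 had 3.17 and 0.80 TPM, and Fanci had 1.03 and 0.28 TPM.

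End joining had the lowest median of the roles of the 41 genes. Xrcc6, which encodes the Ku70 subunit of the end-binding ring, had 10.2 TPM in replicate 1 and 3.79 in replicate 2. Its partner Xrcc5, which encodes Ku80, had 1.53 and 0.56 TPM. Prkdc, the catalytic subunit of the kinase that Ku recruits, had 1.22 and 0.55 TPM. The ends are closed by the product of Lig4, which had 1.10 and 0.37 TPM. Xrcc4, the partner of that ligase, was the only gene of the 41 with 0 counts in both libraries, and 3 counts, the limit that a count of 0 allows, would have been 0.12 TPM in each. The authors' posterior mean TPM of Xrcc4 was 0.46 and 0.48, with their intervals reaching 1.07 and 1.09. The binomial intervals and count limits in this text cover counting error only.

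The checkpoint genes were low together. Atm, the kinase of breaks, had 3.55 TPM in replicate 1 and 0.66 in replicate 2. Atr, the kinase of stalled forks, had 1.73 and 0.74 TPM. Chek1, the effector of Atr, had 2.58 and 0.77 TPM. Chek2, the effector of Atm, had 2.37 and 0.86 TPM. For all 4 genes replicate 1 was above 1 TPM and replicate 2 was below it. By the authors' posterior mean TPM, replicate 2 had 1.27 for Atm, 1.16 for Atr, 1.49 for Chek1 and 0.85 for Chek2.

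Differences between the libraries were described with a log2 ratio of replicate 2 over replicate 1 after TMM scaling, which sets the typical gene near 0. A gene was called when its exact binomial 95% interval (Clopper-Pearson) lay wholly outside 2-fold. The call describes these 2 libraries and is no test of a condition. Of the 40 genes with 20 or more counts over both libraries, 6 were called higher in replicate 1, or 15.0%, against 14.9% of 11704 protein-coding genes. Another 2 of the 40 were called higher in replicate 2, against a background of 8.36%. The remaining 32 were not called. The first share was near the background, and the second rested on 2 genes.

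The genes called higher in replicate 1 came from 5 roles. Atm had 183 counts in replicate 1 and 32 in replicate 2, a log2 ratio of -2.03 with an interval from -2.63 to -1.50. Xrcc3 had 512 and 114 counts and a ratio of -1.69, from -2.00 to -1.40. Xrcc6 had 304 and 75 counts and a ratio of -1.54, from -1.93 to -1.18. Both Ku genes lay below 0, since Xrcc5, with 73 and 27 counts, had a ratio of -0.95, but its interval from -1.66 to -0.31 crossed 2-fold. Brca1 had 391 and 99 counts and a ratio of -1.51, from -1.84 to -1.19. Coding transcripts held 215 of the 391 counts and all of the 99, and no call was made from coding counts alone. Nbn had 502 and 132 counts and a ratio of -1.45, from -1.74 to -1.18. Fancb had 25 counts in replicate 1 and 0 in replicate 2, and the upper end of its interval was -2.18 on the log2 scale.

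The genes called higher in replicate 2 were Xrcc1 and Rad52. Xrcc1 had 2493 counts in replicate 1 and 8580 in replicate 2, and its ratio of 2.25, from 2.19 to 2.32, was the largest of the 41 genes in that direction. Rad52 had 404 and 801 counts and a ratio of 1.46, from 1.28 to 1.63. The call of Rad52 was lost when the libraries were scaled by their totals, with a ratio of 1.05, or when TPM was used, with a ratio of 1.10. Xrcc1 was called with each of these.

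The median ratio of the 40 genes was -0.48, against -0.06 for all 11704 genes. Replicate 1 was the higher in 29 of 40 genes and in 6111 of 11704. All tested genes of the checkpoint (4), Fanconi anaemia (6), end-joining (4) and mismatch repair (3) roles had ratios below 0, with medians of -0.99, -1.08, -1.12 and -0.71. In these 4 roles all ratios were also below 0 with DESeq2 size factors, total-count scaling and TPM. Homologous recombination had a median of -0.16 with 7 of 10 genes below 0, and the MRN complex -0.36 with 2 of 3. Nucleotide excision repair had a median of 0.64, with Ercc2 alone below 0 at -0.18. Base excision repair had a median of 0.22 with 2 of 6 below 0, and this sign turned with total-count scaling (-0.19) and with TPM (-0.29). These directions are those of the listed genes. In the other genes of the pathways, described below, the medians were 0.22 for checkpoint (4 of 10 below 0) and -0.06 for Fanconi anaemia (6 of 9). They were -0.69 for end joining (5 of 7), 0.26 for mismatch repair (1 of 3) and -0.64 for nucleotide excision repair (10 of 12). Those of homologous recombination and base excision repair were -1.03 (13 of 14) and -0.06 (7 of 13).

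Scaling moved all genes. The median over all 11704 genes was -0.47 when the libraries were scaled by their totals and -0.45 for the ratio of TPM, and that of the 40 repair genes was then -0.88 and -1.07. The calls in the repair genes became 11 higher in replicate 1 and 1 higher in replicate 2 with totals, and 13 and 1 with TPM. These were 27.5% and 2.50% of the repair genes with totals, against 23.1% and 3.16% of all genes, and 32.5% and 2.50% with TPM, against 24.2% and 3.92%. The share of calls that were higher in replicate 1 was 64.0% over all genes and 75.0% over the repair genes as reported, 88.0% and 91.7% with totals, and 86.0% and 92.9% with TPM. The authors' own TPM intervals did not overlap between the libraries for 27 of the 40 genes with 20 or more counts, or 67.5%, and 23 of these were higher in replicate 1, or 57.5%. Over all protein-coding genes with 20 or more counts these intervals were apart in 65.7%, with replicate 1 higher in 46.4% and replicate 2 higher in 19.3%.

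**Figure D2:**
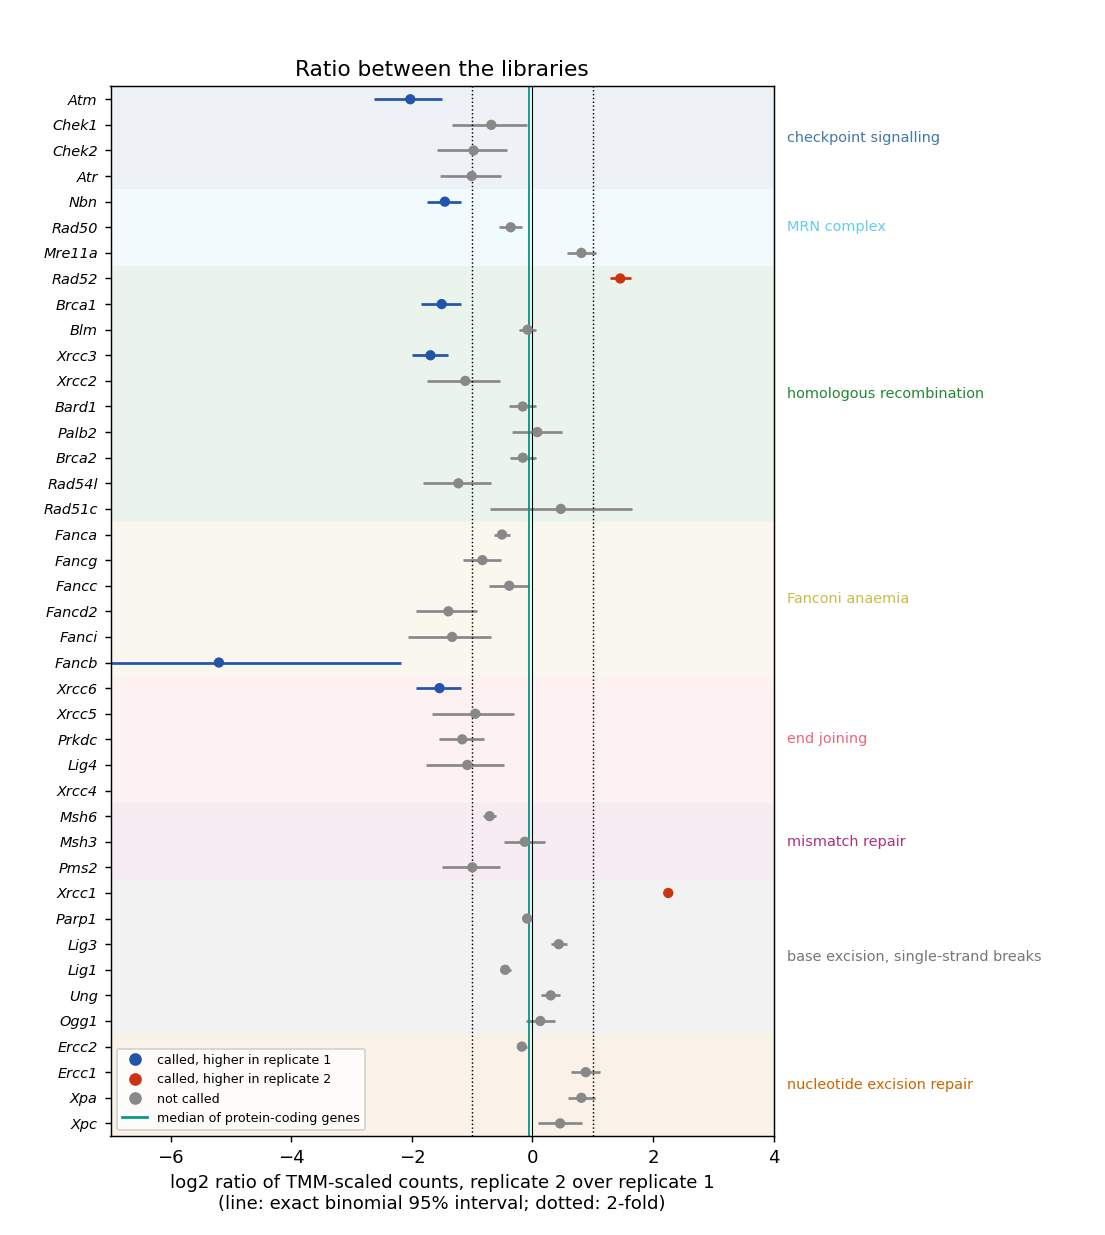
Log2 ratio of TMM-scaled counts, replicate 2 over replicate 1, with exact binomial 95% intervals for the 40 genes with 20 or more counts; dotted lines mark 2-fold, the green line the median of all protein-coding genes (-0.06), blue points the 6 genes called higher in replicate 1 and red points the 2 called higher in replicate 2. The lower end of Fancb, which had 0 counts in replicate 2, runs past the left edge, and Xrcc4 has no point.

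Other markers also differed between the libraries. The 8 proliferation genes summed to 1298 TPM in replicate 1 and 1116 in replicate 2, with Top2a at 80.8 and 12.9 TPM and Cdc20 at 168 and 294 TPM, and all 8 reached 1 TPM in both. The erythroid markers summed to 2692 and 1464 TPM, the macrophage markers to 917 and 1247, and the B cell markers to 692 and 280.4. The macrophage list was mixed. C1qa, C1qb and C1qc, which made up most of its sum, were higher in replicate 2. Csf1r, at 16.7 and 7.55 TPM, Adgre1, at 3.67 and 0.78, and Cd68, at 78.7 and 25.5, were higher in replicate 1. The neutrophil markers summed to 56.8 and 31.2 TPM and the endothelial markers to 9.36 and 3.07. Among the neutrophil markers S100a9 alone was higher in replicate 2, at 4.27 and 10.0 TPM. The T cell sums, 36.6 and 35.5 TPM, and the megakaryocyte sums, 344 and 350.0, were close. Their part in the differences of the repair genes was not tested.

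The ranks of the genes were more alike than their levels. Across the 41 genes the Spearman correlation of TPM between the libraries was 0.917, and across the 11704 genes it was 0.914. Genes are not independent replicates, and the libraries share gene models and length correction, so these values are descriptions. The ratio had a Spearman correlation of -0.26 with the length of the longest transcript over the 40 genes and of -0.06 over all genes.

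The transcript tables showed that a gene's TPM was often not that of its coding transcripts alone. Transcripts were classed by annotation as protein coding, subject to nonsense-mediated decay (they carry an early stop), retaining an intron, or processed without an open reading frame. For the 34 genes averaging 1 TPM or more, the coding share of TPM, averaged over the libraries, had a median of 76.5%, against 99.4% over all 9895 such protein-coding genes. The coding share was 90% or more in both libraries in 12 of 34 genes, or 35.3%, against 59.3%. It was under 50% in both in 8 of 34, or 23.5%, against 16.3%. In replicates 1 and 2 the median coding share was 84.3% and 87.6% of TPM, but 89.3% and 97.9% of counts. Over all such protein-coding genes it was 99.9% and 100% by either measure. When only coding transcripts were summed, 19 of the 41 genes reached 1 TPM in both libraries, or 46.3%, against 37.5% of all protein-coding genes. Coding transcripts had 0 TPM in both libraries in Rad51c, 5.89 and 0.08 TPM in Xrcc2 and 2.43 and 0.07 in Chek1.

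The same 8 genes, Atr, Rad50, Rad52, Fancg, Msh3, Ung, Lig1 and Ercc1, were led by a transcript that is not coding in both libraries, again 23.5%, against 16.0% of all genes. By counts, coding transcripts held 59.1% and 47.4% of Atr, 79.0% and 65.6% of Fancg and 58.9% and 63.7% of Ung. For the rest of the 8 genes they held the lesser part of the counts in both libraries. Rad52-213, which retains an intron, held 84.6% of Rad52 in replicate 1 and 90.1% in replicate 2. Coding Rad52 transcripts had 0 TPM in replicate 1 and 3.81 in replicate 2. Ercc1-204, also with a retained intron, held 50.3% and 74.2% of Ercc1, whose coding transcripts had 1.45 and 0 TPM. For both genes most of the level given above was thus assigned to transcripts without the full reading frame.

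By TPM, Lig1 and Ung were alike in that respect. Lig1-207, a processed transcript of 2968 bases, held 87.4% of Lig1 in replicate 1 and 78.9% in replicate 2. The coding transcripts of Lig1 had 5.27 and 0.77 TPM. Ung-205, marked for nonsense-mediated decay, held 66.7% and 62.1% of Ung. Coding Ung had 11.4 and 11.0 TPM, which differed 1.03-fold. Among the break and mismatch genes, Rad50-204 held 89.2% and 93.7% of Rad50 and Msh3-207 held 85.1% and 66.3% of Msh3, both marked for decay. In Fancg the leading transcript was the processed Fancg-206 in replicate 1, at 55.0%, and Fancg-207, with a retained intron, in replicate 2, at 38.8%.

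Other genes changed their leading transcript between the libraries. Over genes with 2 or more transcripts and averaging 1 TPM or more, the leader was the same in 19 of 28, or 67.9%, against 68.5% of all such protein-coding genes. Parp1 was split in replicate 1 between the coding Parp1-201, at 49.4%, and Parp1-205 with a retained intron, at 49.5%, and in replicate 2 the coding form held 88.5%. Coding Parp1 accordingly had 50.2 and 39.8 TPM, a 1.26-fold difference, where the gene as a whole had a 2.26-fold one. The 4457 and 3026 counts of Parp1 gave a scaled ratio of -0.09. Xrcc6 was led by coding transcripts in both, Xrcc6-201 at 55.7% and Xrcc6-209 at 42.9%.

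Brca1 showed the widest gap between TPM and counts. Its TPM differed 31.7-fold between the libraries and its scaled counts 2.84-fold. In replicate 1 Brca1-202, a transcript of 539 bases with a retained intron, held 170 counts and 85.8% of the gene's TPM, and in replicate 2 it was at 0. The effective length that the authors used for the gene was 802 bases in replicate 1 and 6432 bases in replicate 2. Coding Brca1 transcripts had 3.37 and 0.78 TPM, a 4.32-fold difference, from 215 and 99 counts. Of the 3.37 TPM, 1.79 was that of Brca1-207, a model of 531 bases with 14.1 counts, which was at 0 in replicate 2. The full-length coding Brca1-201, of 6572 bases, had 201 counts and 1.58 TPM in replicate 1 and 99 counts and 0.78 TPM in replicate 2.

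Xrcc1, Lig3 and Ercc2 were led by coding transcripts in both libraries. Xrcc1 has 1 transcript in the tables, the coding Xrcc1-201, so its difference between the libraries involves no split among forms. Lig3-208, a coding model of only 793 bases, held 58.7% of Lig3 in replicate 1 and 74.6% in replicate 2. The longest, Lig3-201 of 5957 bases, had 230 counts and 2.00 TPM in replicate 1 and 7.17 counts and 0.06 TPM in replicate 2. Of the other long coding models, Lig3-212 had 34.5 and 0 counts. Lig3-203, with 0 and 21.7 counts, and Lig3-210, with 10.3 and 51.05, went the other way. Ercc2-203, also coding, held 78.2% and 78.6% of Ercc2. Atm was led by Atm-203, a coding model of 602 bases, at 69.0% and 78.9%, while the full-length Atm-201 of 10006 bases held 157 of 183 counts in replicate 1 and 27.2 of 32 in replicate 2. In that gene the short model took most of the TPM and the long one most of the counts.

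**Figure D3:**
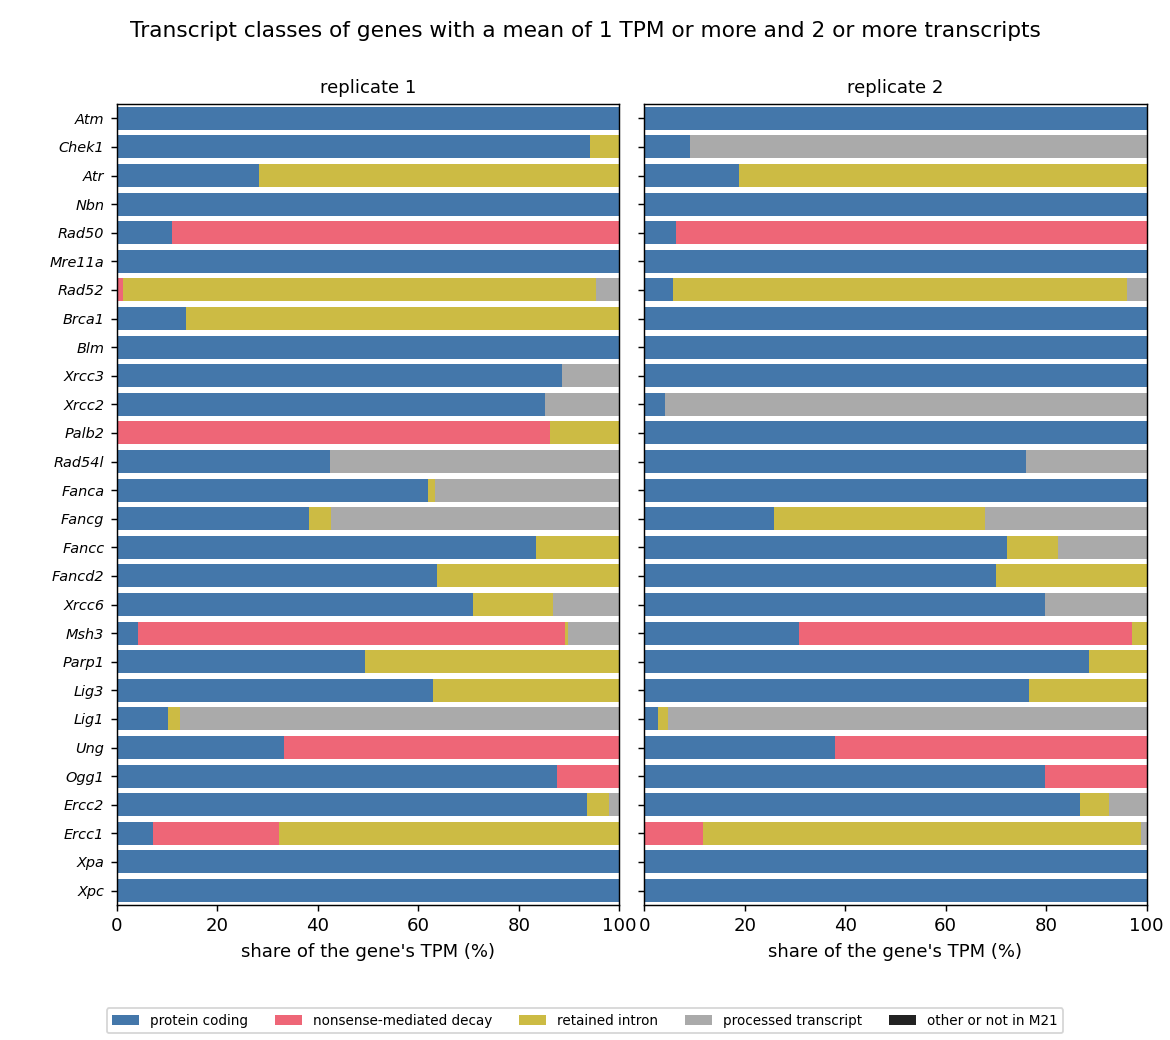
Share of each gene's TPM, in percent, by annotated transcript class in replicate 1 (left) and replicate 2 (right), for the 28 genes that average 1 TPM or more and have 2 or more transcripts. Rad50, Rad52, Msh3, Lig1, Ung and Ercc1 are mostly not blue in both panels, and Brca1 and Parp1 change from left to right.

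The retained-intron transcripts that held 30% or more of a gene with a mean of 5 TPM or more are shown at the point where they leave the coding sequence, for 5 of 6. The other, Lig3-205, has no point where 20 coding bases are followed by 20 intron bases. Each stretch has 30 bases of a coding exon in capitals and the first 30 bases of the intron that follows in lower case, 5′ to 3′ on the strand of the gene, from the GENCODE M21 transcripts on mm10. Reads over such a point tell the retained form from the spliced one, and the intron begins with gt in each. The stretches lie at chr11:101512690-101512749 for Brca1-202 (minus strand), chr7:19350235-19350294 for Ercc1-204 (plus), chr4:43009972-43010031 for Fancg-207 (minus), chr1:180599625-180599684 for Parp1-205 (plus) and chr6:119918757-119918816 for Rad52-213 (plus).
Brca1-202: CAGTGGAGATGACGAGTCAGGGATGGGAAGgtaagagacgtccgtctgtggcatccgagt
Ercc1-204: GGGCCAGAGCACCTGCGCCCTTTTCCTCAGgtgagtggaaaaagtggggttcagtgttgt
Fancg-207: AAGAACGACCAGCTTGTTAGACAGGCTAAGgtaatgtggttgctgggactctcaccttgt
Parp1-205: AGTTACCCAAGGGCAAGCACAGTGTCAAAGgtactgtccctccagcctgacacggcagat
Rad52-213: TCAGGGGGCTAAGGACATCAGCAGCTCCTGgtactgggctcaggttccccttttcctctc

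The intron made up 441 of the 871 bases of Parp1-205, or 50.6%, and 209 of the 539 bases of Brca1-202, or 38.8%. It was 34.5% of Ercc1-204, 31.5% of Fancg-207 and 20.6% of Rad52-213. Lig3-205, the sixth such transcript, held 37.0% of Lig3 in replicate 1 and 22.7% in replicate 2, and 14.7% of its bases were intronic. The rest of each transcript is shared with coding forms, so its counts rest on how the quantification divides shared fragments.

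Promoters of the repair genes were searched for words bound by regulators of replication and division genes. E2F factors drive genes of DNA synthesis, the CHR element represses cell cycle genes outside division, and the CCAAT box is bound by NF-Y. RefSeq promoters on GRCm38.p6, from 250 bases before to 50 after the start, were matched by symbol for 35 of the 41 genes. An E2F word (TTTGGCGC, TTTCGCGC or TTTCCCGC, either strand) was in 9 of 35, or 25.7%, against 2.83% of 16317 protein-coding genes and 4.58% of the 7120 of them at 1 TPM or more in both libraries. A CHR word (TTTGAA or TTCGAA, either strand) was in 2 of 35, Atr and Bard1, or 5.71%, against 19.3%. The word CCAAT, either strand, was in 19 of 35, or 54.3%, against 42.0%. The median GC content of the promoters was 61.3% for the repair genes and 58.0% for all protein-coding genes.

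The 9 genes with an E2F word were Chek2, Bard1, Brca2, Rad51c, Fancg, Xrcc6, Msh3, Msh6 and Lig1, from 6 roles. Their levels ran from that of Rad51c, at 0.37 and 0.77 TPM, to that of Lig1, at 52.2 and 27.6 TPM, and Xrcc6 alone among them was called between the libraries. The words are shown in capitals with 10 bases on each side, 5′ to 3′ on the strand of the gene, and with the position of the first base of the word where the start is 1. Of the 2 RefSeq starts of Rad51c with a word, the upstream one is shown, and Msh3 has a pair of overlapping words in its stretch, of which the first is in capitals. The stretches are from chromosome 5 (Chek2 and Brca2), 1 (Bard1), 11 (Rad51c), 4 (Fancg), 15 (Xrcc6), 13 (Msh3), 17 (Msh6) and 7 (Lig1), at -152, -168, -209, -5, -52, -46, -202, 16 and 27 in the order of the lines.
Chek2: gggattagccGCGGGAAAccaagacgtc
Brca2: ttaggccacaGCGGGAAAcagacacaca
Bard1: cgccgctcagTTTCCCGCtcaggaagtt
Rad51c: ccccgcgaggGCGGGAAAagcaaggggt
Fancg: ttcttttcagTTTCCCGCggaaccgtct
Xrcc6: gggggtggaaGCGGGAAAtgcgagtggg
Msh3: tgccgtcaagTTTGGCGCgaaatcgcag
Msh6: tcctcccgacTTTCCCGCcagcggcggc
Lig1: gccaaagtgcGCGCGAAAtctgtgtggc

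Bard1 was the only gene of the 35 with both an E2F and a CHR word, and Msh3 the only one with more than 1 E2F word in a single promoter. Their whole promoters are given with every E2F and CHR word in capitals. That of Bard1 is at chr1:71102923-71103222 (minus strand), with the CHR word TTTGAA at -242 and the E2F word at -209. That of Msh3 is at chr13:92354954-92355253 (minus strand), where TTTGGCGC at -202 overlaps GCGCGAAA, the other strand of TTTCGCGC, at -198. A match describes these letters and not a bound site.
Bard1: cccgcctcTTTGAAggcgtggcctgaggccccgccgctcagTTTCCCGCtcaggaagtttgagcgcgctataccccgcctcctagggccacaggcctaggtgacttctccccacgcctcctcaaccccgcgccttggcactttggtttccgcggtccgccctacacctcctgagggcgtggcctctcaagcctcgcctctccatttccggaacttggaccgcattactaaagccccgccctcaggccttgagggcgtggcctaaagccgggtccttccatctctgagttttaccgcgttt
Msh3: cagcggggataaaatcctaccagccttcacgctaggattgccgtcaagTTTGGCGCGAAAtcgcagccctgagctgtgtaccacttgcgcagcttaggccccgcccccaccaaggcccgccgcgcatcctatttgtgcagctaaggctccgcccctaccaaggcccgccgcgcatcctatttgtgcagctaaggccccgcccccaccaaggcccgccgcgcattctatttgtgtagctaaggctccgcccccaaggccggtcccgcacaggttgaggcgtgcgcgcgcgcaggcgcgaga

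Many of the repair genes share a start region with another coding gene on the other strand. A coding neighbour started upstream within 1000 bases in 14 of the 41 genes, against 6.83% of all protein-coding genes. When neighbours whose starts overlap the gene were added, a wider definition chosen after values had been seen, there were 17 of 41, against 10.9%. None of the neighbours was itself one of the 41 genes. Prkdc at 1.22 and 0.55 TPM faces Mcm4, a subunit of the replicative helicase, at 76.7 and 49.0 TPM with 466 bases between the starts. Fancd2 faces Emc3, at 36.0 and 44.1 TPM, over 30 bases, and Pms2 faces Aimp2, at 71.4 and 19.7 TPM, over 117 bases. Brca1 faces Nbr1, an autophagy receptor gene, at 45.5 and 36.5 TPM, over 194 bases. In these pairs the neighbour was the more abundant in both libraries.

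In other pairs the repair gene was the more abundant. Atm faces Npat, a histone gene regulator with 1.33 and 0.42 TPM, over 307 bases. Xrcc1 faces Pinlyp, which was at 0 in both libraries. Of the 17 pairs, 5 held a repair gene called between the libraries and 4 a called neighbour. Over all tested protein-coding genes 23.2% were called in either direction, and the neighbours Tex14 and Pinlyp, at 0 counts in both libraries, could not be called. Reads of overlapping genes cannot be told apart where the counting did not use strand, which the sources used here do not give.

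The 41 genes lie on 14 chromosomes, with 7 on chromosome 7 and 5 on chromosome 5. Ercc1 (chromosome 7, 19344778 to 19356524) and Ercc2 (19382010 to 19395694), both of nucleotide excision repair and both on the plus strand, are 25486 bases apart. Ogg1 and Fancd2 are 196614 bases apart on chromosome 6. Xrcc1 (ENSMUSG00000051768.8) lies on chromosome 7 at 24546289 to 24573440, Rad52 (ENSMUSG00000030166.10) on chromosome 6 at 119902698 to 119922828 and Brca1 (ENSMUSG00000017146.8) on chromosome 11 at 101488764 to 101551955, all on mm10.

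The other genes of these pathways, an additional 81 chosen by role, give the setting. At least 1 TPM was reached in both libraries by 63 of 81, or 77.8%. Of the 78 with 20 or more counts, 15 were called higher in replicate 1 and 4 in replicate 2, or 19.2% and 5.13%, against 14.9% and 8.36% of all protein-coding genes. By mean TPM the other checkpoint genes were more abundant than Atm, Atr, Chek1 and Chek2, and all 10 reached 1 TPM in both libraries. They were led by Rad9a, a subunit of the checkpoint clamp, at 43.0 and 28.8 TPM. Topbp1, an activator of Atr, had 31.8 and 21.1 TPM. Hus1, another clamp subunit, had 17.4 and 1.51 TPM and was called, with a ratio of -2.93. The least abundant was Clspn, a mediator of Chek1, at 7.18 and 1.76 TPM, called with a ratio of -1.54.

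Around breaks, the histone variant gene H2afx had 796 and 1419 TPM and was called higher in replicate 2, with a ratio of 1.30. Rif1, which shields ends, had 35.0 and 20.2 TPM and a ratio of -1.74. Mdc1, which reads the modified histone, had 16.9 and 4.07 TPM and a ratio of -1.69. Both were called higher in replicate 1, as was Tipin, a fork protection gene and the least abundant of its list, at 3.71 and 0.09 TPM. Of the other recombination genes, Rpa1, the single-strand binding subunit, had 94.3 and 34.7 TPM, and Mus81, a nuclease, 58.7 and 56.2 TPM. Rad51ap1, a cofactor of strand exchange at 13.1 and 0.93 TPM, was called with a ratio of -3.84, and Rad51b was the lowest at 0.22 and 0 TPM.

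Genes outside the 41 also included abundant ones of the Fanconi anaemia and nucleotide excision lists. Usp1, the protease that removes ubiquitin from the Fancd2 pair, had 712 and 764 TPM, and Fance, a core gene, 121 and 59.2 TPM. The Usp1 values rest on 3458 and 3402 counts over a short effective length of 246 and 224 bases. Fancl, the ubiquitin ligase of the core, was the lowest at 0.97 and 0.39 TPM. Rad23b, a partner of Xpc, had 705 and 293 TPM and was not called, in contrast to Gtf2h4 and Ercc3, TFIIH subunits at 40.4 and 12.9 TPM and at 14.9 and 2.65 TPM, with ratios of -1.29 and -1.53. Cetn2, the centrin of the Xpc complex, was lowest at 1.32 and 0.09 TPM.

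In base excision, Fen1, the flap nuclease, had 76.9 and 33.8 TPM. Pcna, the sliding clamp of replication and repair, had 85.5 and 13.8 TPM and was called with a ratio of -2.17, and Polb, the gap-filling polymerase, had 36.8 and 11.3 TPM and a ratio of -1.23. Neil2, a glycosylase gene, was lowest at 0.17 and 0 TPM. In end joining, Polm, a polymerase, had 15.3 and 18.8 TPM, with Nhej1 lowest at 0.88 and 0.33 TPM. In mismatch repair, Msh5, known from meiosis, had 33.3 and 80.3 TPM and was called higher in replicate 2 with a ratio of 1.68, Mlh3 had 1.56 and 1.01 TPM, and Msh4, the meiotic partner of Msh5, 0.17 and 0.11 TPM. Of the genes that reverse damage directly, Alkbh3 had 34.7 and 27.0 TPM, Alkbh2 15.6 and 33.1 TPM with a ratio of 1.55, and Mgmt 5.91 and 11.5 TPM with a ratio of 1.42.

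**Figure D4:**
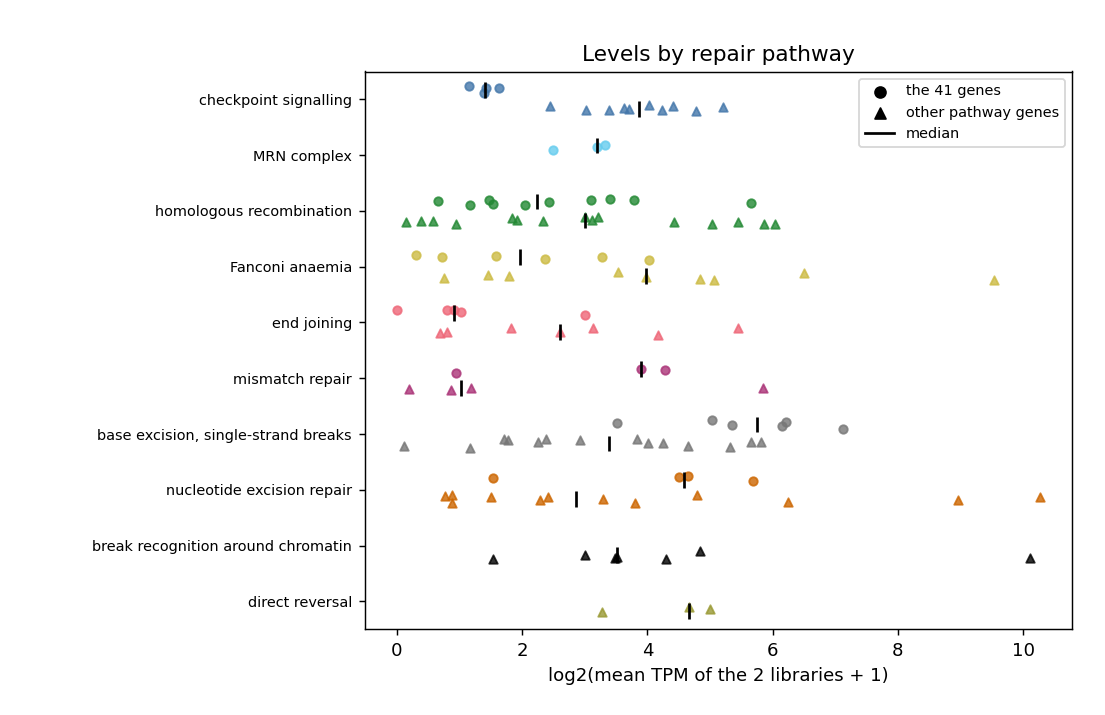
Mean level of the 2 libraries, log2(mean TPM + 1), by pathway, with circles for the 41 genes, triangles for the 81 other pathway genes and black bars for medians. Atm, Atr, Chek1 and Chek2 lie left of all 10 other checkpoint genes, and base excision has the highest median of the 41 genes.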

How the data were processed

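PolyA mRNA was sequenced with paired ends in 2 libraries of 1 group. Per the file headers and a readme, the authors made a gene and a transcript table for each library, unpooled, on mm10 with GENCODE M4 models. Which aligner and quantifier they ran is not given in the sources used here. Deposited expected counts are estimated fragments that need not be whole. The deposited TPM values are relative to all rows, and the authors' posterior mean TPM and the deposited FPKM served as alternatives. A transcript's share of its gene was taken from the deposited percent. The bounds of the authors' TPM intervals, per the file headers a signal on the TPM scale, were compared between the libraries.

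Each gene table had 69691 rows, of which 43346 had Ensembl identifiers and 42462 matched GENCODE M21, the source of symbols, gene and transcript types and positions. Of the 268 transcripts of the 41 genes, 2 were not in M21. Transcript types are those of M21 and may differ from M4. Counts rounded to whole numbers gave TMM factors in edgeR 4.0.16 and alternative size factors in DESeq2 1.42.0 (R 4.3.3). Ratios used a prior count of 0.5, and the interval and call rule was tested on simulated data with counting error alone, drawn for 11673 genes of these libraries. It recovered 198 of 200 genes changed 8-fold and called 1 of 11473 unchanged genes. Changes nearer to 2-fold and spread between replicates were not simulated, so the rule was not tested for these. With 1 group, no p-value was given. Other software was Python 3.11.15, scipy 1.17.1, numpy 2.4.6, pandas 2.3.3 and matplotlib 3.10.9.

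Every gene of the 41 was named. Of the other pathway genes, the 2 most abundant and the least abundant of each list were named, with all those called at a mean of 5 TPM or more. Some genes that this rule names are not reported here. Transcripts were named at a mean of 5 TPM or more where the leader changed or was not coding, and for the 5 most abundant genes. The Atm transcripts and the coding values of Pms2, Palb2, Rad51c, Xrcc2 and Chek1 were named after their values were seen. The genes and lists were chosen with earlier results of these data known. The retained-intron stretches, the promoter words, the facing neighbours, the genes named with them and the limits for counting a level, share or ratio as moved were chosen after the files had been read. Alternatives were other TPM minimums, level measures, pseudocounts, scalings, prior counts, count minimums, a smaller fold and each library alone.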

Additional observations from a re-analysis of the deposited data

How the results depend on the processing

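Of 43 alternative values for the summary results, 30 stayed within their limits and 13 moved. With a minimum of 5 TPM in place of 1, 16 of the 41 genes were counted in both libraries. At 0.5 TPM these were 36, and with posterior mean TPM at the minimum of 1 they were 33, against 26. The genes called higher in replicate 1 were 11 with total-count scaling, 13 with the ratio of TPM and 11 at 1.5-fold, against 6. These settings called 23.1%, 24.2% and 23.3% of all genes higher in replicate 1. Those called higher in replicate 2 were 1, 1 and 4, against 2, and over all genes 3.16%, 3.92% and 18.2%. The median log2 ratio was -0.88 with total-count scaling and -1.07 with the ratio of TPM, against -0.48. The coding share of 76.5% was 68.8% with the authors' posterior mean TPM and 72.5% over genes averaging 5 TPM or more. With 1 library left out, this share lay between 84.3% and 87.6%, the genes at 1 TPM or more between 26 and 38, and the median level between 1.82 and 2.98. For the 8 called genes under 3 other scalings, 22 of 24 ratios kept the call, and the 2 that did not were those of Rad52 with total-count scaling (1.05) and the ratio of TPM (1.10). Fancb was not tested at a minimum of 100 counts.

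No paired analysis was possible because there was 1 group. With 2 libraries the spread between replicates rests on 1 difference per gene. The split between transcripts of a gene depends on fragments they share, and genes with few counts, such as Rad51c with 14 in each library, allow only wide intervals.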
